A study of Mus musculus with 16 samples.

Results

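The 9 genes described here encode the enzymes that write DNA methylation (*Dnmt1*, *Dnmt3a*, *Dnmt3b*), the TET enzymes that oxidize it (*Tet1*, *Tet2*, *Tet3*), and proteins that read it or guide its copying (*Mbd1*, *Mbd2*, *Uhrf1*). They were taken by symbol from the 48397 gene symbols counted in each of 16 RNA sequencing libraries, and all 9 were among the 17038 genes that passed the filter on low counts. These genes were selected on earlier results of these same libraries. Their values by apoE isoform are therefore given as a description, with fold changes and intervals but no p-values.

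The libraries came from hippocampal neurons of wild-type CD1 mice, cultured from pups at postnatal day 0 to 2 and treated with cytosine arabinoside at 3 days in vitro (DIV) to hold back dividing, non-neuronal cells. The neurons received concentrated medium of immortalized astrocytes at 10 and 13 DIV and were lysed at 17 DIV, with 4 independent cultures for each of 4 groups. The control neurons received medium of *Apoe*-/- astrocytes, which holds no apoE, and the apoE2, apoE3 and apoE4 neurons received medium of astrocytes homozygous for the human ε2, ε3 or ε4 *APOE* allele. All 4 groups thus received astrocyte medium, no group was left without it, and the neurons kept their own mouse *Apoe* gene. The labels do not say how many astrocyte lines supplied each medium, so an isoform and its line cannot be told apart.

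DNA methyltransferases place a methyl group on cytosine, mostly where a guanine follows. DNMT1 copies the pattern to the new strand after replication with the help of UHRF1, and DNMT3A and DNMT3B set new marks. TET enzymes oxidize 5-methylcytosine to 5-hydroxymethylcytosine and further, after which the glycosylase TDG can cut out the oxidized base and repair restores an unmethylated cytosine. Neurons no longer divide, yet they are rich in both DNMT3A and 5-hydroxymethylcytosine. The methyl-CpG binding proteins MBD1 and MBD2 bind methylated DNA and recruit repressor complexes.

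Several of these genes share a feature in their 3′ untranslated regions, the pairing sites of the miR-29 microRNAs, which are abundant in mature neurons and known to act on DNA methyltransferases and TET enzymes. The mature sequences in RefSeq (GRCm38.p6) are shown because the 3 family members differ at their 3′ ends but share 1 seed, bases 2 to 8, given in capitals.
miR-29a-3p: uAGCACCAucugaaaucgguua
miR-29b-3p: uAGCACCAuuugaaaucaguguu
miR-29c-3p: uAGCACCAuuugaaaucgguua
The reverse complement of this seed, TGGTGCT, was searched on the transcript strand of the longest annotated 3′ untranslated region of each gene (GENCODE M21). It was found 8 times in *Tet3*, 7 times in *Tet1*, 5 times each in *Dnmt3a* and *Tet2*, and once in *Dnmt3b*. *Dnmt1*, *Mbd1*, *Mbd2* and *Uhrf1* had no match. Of the 14028 tested genes with an annotated 3′ untranslated region, 16.9% held at least 1 match, and 13 genes (0.0927%) held 5 or more, of which *Dnmt3a*, *Tet1*, *Tet2* and *Tet3* were 4. These regions are long, 7965 bases in *Tet1*, 6699 in *Dnmt3a*, 5672 in *Tet3* and 3061 in *Tet2*, against a median of 1385 over all of these genes. Per kilobase the 4 genes held between 0.746 matches in *Dnmt3a* and 1.63 in *Tet2*.

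The 8 matches of *Tet3* are printed with 8 flanking bases on each side and the match in capitals, since *Tet3* is the gene whose level differed most with apoE4. They are numbered from the start of the 3′ untranslated region of the *Tet3* transcript in which it is longest.
Tet3 site 1: ctgctctgTGGTGCTtttgccct
Tet3 site 2: gtgctgtgTGGTGCTggagcctg
Tet3 site 3: ctggagccTGGTGCTgtagtagt
Tet3 site 4: gagaacgtTGGTGCTttaatttc
Tet3 site 5: ctaataaaTGGTGCTatggtgtt
Tet3 site 6: ccctctttTGGTGCTgtctttgt
Tet3 site 7: ctagctccTGGTGCTcagactaa
Tet3 site 8: cttttagtTGGTGCTaaacttct
Sites 2 and 3 lie close together, at bases 1022 to 1028 and 1035 to 1041, so their flanks overlap. Sites 5 and 8 are followed by an A, the base opposite the first base of the microRNA. A match is a description of the letters only, and the level of mature miR-29 was not analysed here.

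In the control neurons the levels per length, as RPKM, which divides reads by exon length and library size, spanned *Dnmt3a* at 11.8 ± 2.13 (SD, n = 4) to *Dnmt3b* at 0.144 ± 0.056. *Dnmt1* followed *Dnmt3a* at 11.3 ± 1.06 RPKM and *Mbd2* was at 9.72 ± 0.825, and neighbours in this order overlapped among these 3 genes. *Mbd1* at 4.25 ± 0.202 RPKM and *Tet3* at 3.82 ± 0.568 overlapped each other and lay below all *Mbd2* values. *Tet2* at 2.22 ± 0.441 and *Tet1* at 2.01 ± 0.551 RPKM came next, overlapping each other and lying below *Tet3*. *Uhrf1* was at 0.772 ± 0.737 RPKM, and its 4 control values reached into those of both *Tet1* and *Dnmt3b*. *Dnmt3b* rested on 7 to 23 reads in a library, the fewest of the 9.

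**Figure D1:**
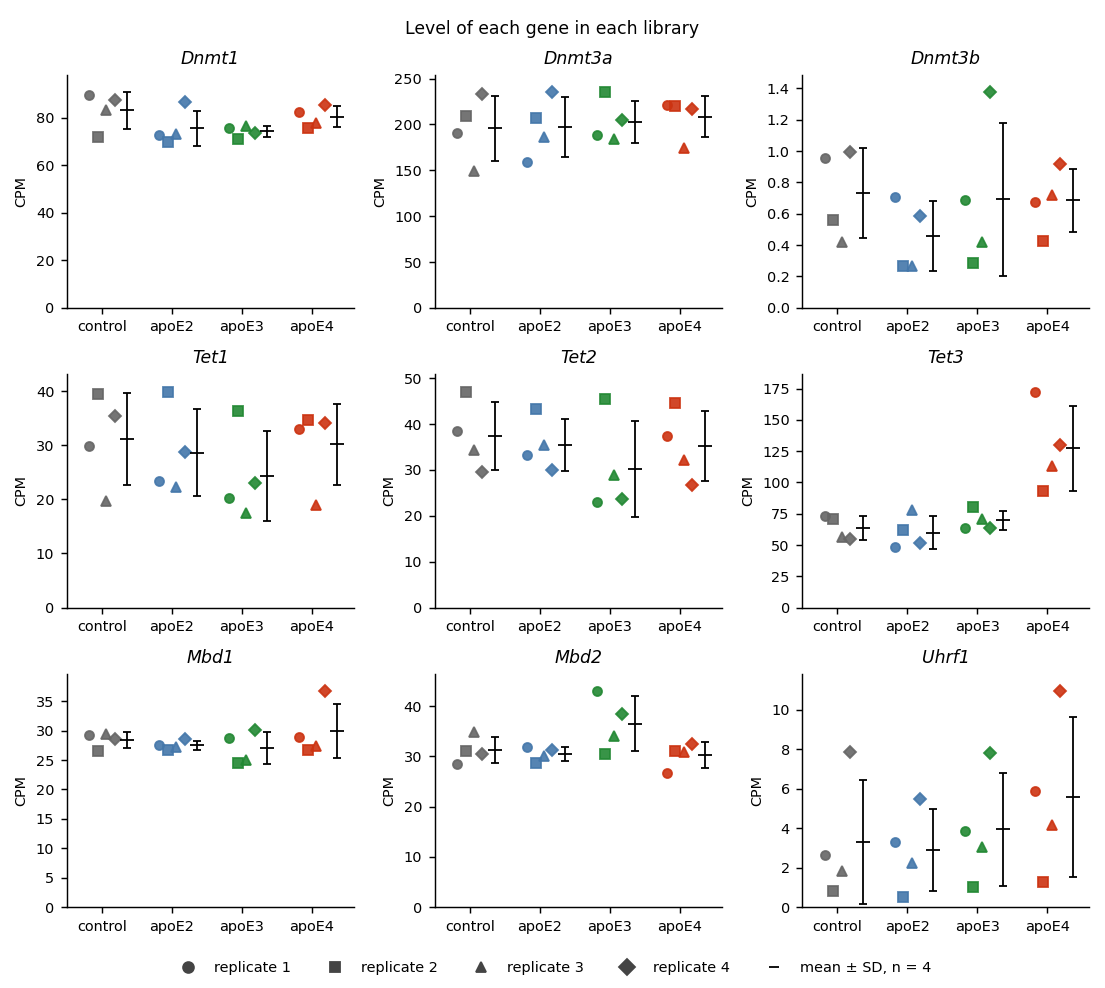
Level of each gene in CPM, read counts scaled by library size, in the 16 libraries, with 4 points a group marked by replicate number and the mean ± SD beside them. The 4 apoE4 points of Tet3 sit between 93.3 and 173 CPM, above all 12 other libraries, while the groups of the other 8 genes overlap.

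*Tet3* was the member that differed most between the isoforms. It lies on chromosome 6 (mm10, 83362373 to 83459084, minus strand) and no other annotated gene shares its exons. In CPM, a level scaled by library size, the apoE4 libraries 1 to 4 were at 173, 93.3, 113 and 130. The control libraries were at 73.3, 70.4, 56.1 and 55.0, the apoE2 libraries at 48.1, 61.7, 78.1 and 51.8, and the apoE3 libraries at 63.6, 80.4, 70.6 and 63.9. All 4 apoE4 libraries were thus above every other library, and the other 3 groups overlapped one another. Of all tested genes, 1.34% had their 4 apoE4 libraries above the 4 control libraries and 0.382% had them above all 12 others, and *Tet3* was the single member in either count.

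The mean *Tet3* level with apoE4 was 127 ± 33.8 CPM (SD, n = 4) against 63.7 ± 9.49 in the control, a log2 fold change of 1.00 with a standard error (SE) of 0.19 and a 95% interval from 0.59 to 1.40. Within pairs of the same replicate number the apoE4 library held 2.36, 1.33, 2.02 and 2.37 times the control level, so the pair numbered 2 differed least. Of all tested genes, 2.88% had a larger log2 fold change with apoE4. Against apoE2 the log2 fold change was 1.09 (SE 0.19) and against apoE3 it was 0.87 (SE 0.19), with *Tet3* higher in 4 of 4 pairs each time. With apoE2 and apoE3 the log2 fold changes from the control were -0.09 and 0.13, each under its SE of 0.19. The 3 comparisons with apoE4 share the apoE4 libraries and are not independent.

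At a Benjamini-Hochberg adjusted p under 0.05 in edgeR's quasi-likelihood test, 0 of the 9 genes were called with apoE2, apoE3 or apoE4 against the control. The shares of all tested genes called were 0%, 0.00587% and 0.194% in the same order. Without adjustment, 0, 0 and 1 of the 9 had a p under 0.05, against 2.78%, 6.34% and 3.33% of all tested genes. DESeq2 called 0, 0 and 1, against 0.170%, 0.352% and 0.534% of all tested genes, the gene being *Tet3* in both cases. Against apoE2, *Tet3* was called with apoE4 (1 of 9, and 0.252% of all genes). None of the 9 was called by edgeR for apoE4 against apoE3 or apoE3 against apoE2, where 0.153% and 0% of all genes were. At an unadjusted p under 0.05 there were 2 (*Tet3* and *Mbd2*) and 1 (*Mbd2*), against 4.67% and 2.28% of all genes. DESeq2 called 1 (*Tet3*) and 0 in these comparisons, against 0.405% and 0.0528% of all genes. Since the members were known from these contrasts, nothing is read from these counts.

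Libraries with the same replicate number deviated together, and with this number as a block *Tet3* and *Uhrf1* were called with apoE4 against the control (2 of 9, 3.34% of all genes) and against apoE2 (2 of 9, 4.45%), and *Tet3* alone against apoE3 (1 of 9, 1.80% of all genes). With the block 0 members were called for apoE2 and apoE3 against the control and for apoE3 against apoE2, where 1.72%, 11.8% and 1.37% of all genes were. The study used a fold of 2 or more and p under 0.05 before adjustment, with another test. With the same limits applied to the folds and p-values of edgeR, 0 members passed with apoE2, apoE3 or apoE4, against 0.716%, 1.95% and 1.14% of all genes. *Tet3* with apoE4 lay just outside these limits at a fold change of 1.998. The call of *Tet3* against the control with the block was kept in all 16 fits that left out 1 library, and that against apoE3 in 11 of 16, being lost without apoE3 library 1, 3 or 4 or apoE4 library 1 or 4. Without the block the call of *Tet3* against apoE2 was lost when apoE2 library 1, 2 or 4 or apoE4 library 1 or 4 was left out, and the call against the control was gained when apoE2 library 3 or apoE4 library 2 was left out.

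**Figure D2:**
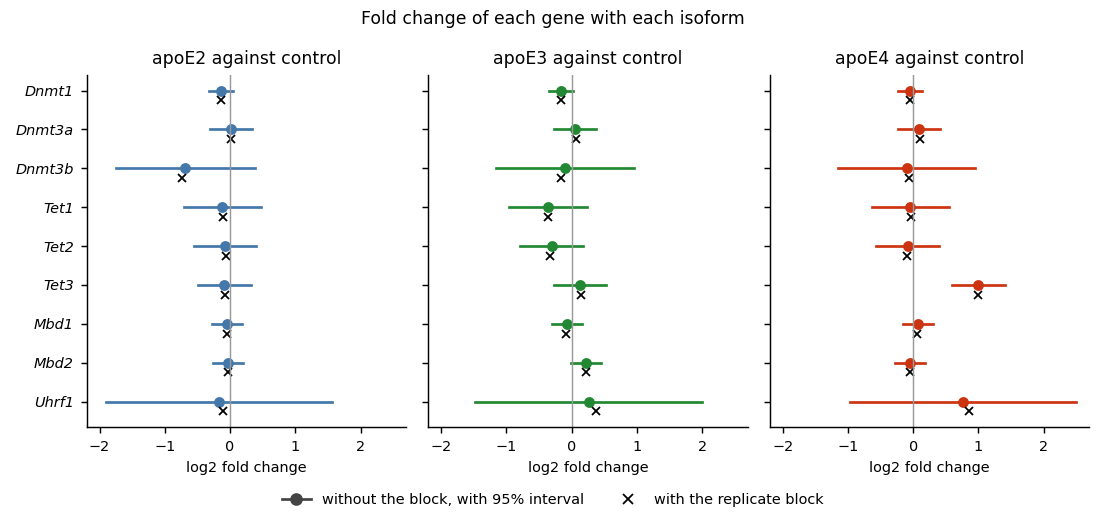
Log2 fold change of each gene with each isoform against the control neurons, as points with 95% intervals from the fit without the block and as crosses from the fit with the replicate block. Tet3 with apoE4 is the single point whose interval excludes 0, at 1.00, and Uhrf1 and Dnmt3b have the widest intervals.

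The other TET genes had smaller fold changes with apoE4. *Tet1* (chromosome 10, 62804570 to 62908996) was at 30.2 ± 7.46 CPM with apoE4 and 31.1 ± 8.52 in the control, a log2 fold change of -0.04 (SE 0.28). *Tet2* (chromosome 3, 133463679 to 133545139) was at 35.2 ± 7.68 and 37.4 ± 7.43 CPM, with -0.09 (SE 0.22). *Tet2* was lower with apoE4 in 4 of 4 pairs, at 0.973, 0.947, 0.933 and 0.901 times the control. With apoE3 both were lower than in the control in 4 of 4 pairs, and the groups overlapped. The *Tet1* level was 20.3, 36.2, 17.5 and 23.0 CPM in apoE3 libraries 1 to 4 and 29.9, 39.4, 19.8 and 35.4 in the control libraries. The apoE3 libraries 1 and 4 held 0.677 and 0.649 times the control level, and libraries 2 and 3 held 0.920 and 0.885 times. The *Tet2* level was 22.9, 45.4, 28.9 and 23.6 CPM with apoE3 and 38.5, 47.1, 34.4 and 29.5 in the control, with the lowest ratio, 0.596, in pair 1. The log2 fold changes with apoE3 were -0.36 (SE 0.28) for *Tet1* and -0.31 (SE 0.22) for *Tet2*. With the block both were about the same size, -0.36 (SE 0.12) and -0.33 (SE 0.10), and neither was called. Of the 16 blocked fits that left out 1 library, *Tet1* was called with apoE3 in 2, without apoE3 library 2 or apoE4 library 1, and *Tet2* in 3, without apoE2 library 4, apoE3 library 2 or apoE4 library 1. With offsets for gene length and GC content added to the block, both were called lower with apoE3, where 13.5% of all tested genes were called.

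For the 3 methyltransferases the libraries of all groups overlapped. *Dnmt1*, the maintenance enzyme (chromosome 9, 20907209 to 20959888), was at 83.0 ± 7.86 CPM in the control, 75.5 ± 7.45 with apoE2, 74.2 ± 2.49 with apoE3 and 80.3 ± 4.40 with apoE4. It was lower than the control of the same number in 4 of 4 pairs with apoE2 and with apoE3, by small amounts, the ratios running from 0.811 to 0.991 and from 0.843 to 0.986. The log2 fold changes were -0.14 and -0.16 (both SE 0.09), with 95% intervals from -0.32 to 0.05 and from -0.35 to 0.03. *Dnmt3a* (chromosome 12, 3806007 to 3914443), the most abundant member per length, had group means between 196 ± 35.5 CPM in the control and 208 ± 22.5 with apoE4. Its largest log2 fold change from the control was 0.09 (SE 0.15), with apoE4. *Dnmt3b* (chromosome 2, 153649450 to 153687730) was at 0.733 ± 0.286 CPM in the control and 0.456 ± 0.223 with apoE2, lower in 4 of 4 pairs at a log2 fold change of -0.69 (SE 0.50). With the block it was -0.74 (SE 0.33) and was not called.

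For the readers *Mbd1* and *Mbd2* the libraries of all groups overlapped. *Mbd1* ranged from 24.5 to 36.7 CPM over all 16 libraries, and its log2 fold changes from the control were -0.05, -0.07 and 0.07 with apoE2, apoE3 and apoE4 (each SE 0.10). *Mbd2* was at 43.0, 30.5, 34.1 and 38.5 CPM in the apoE3 libraries and between 26.6 and 34.9 CPM in the other 12. The apoE3 libraries 1 and 4 were thus above every other library and libraries 2 and 3 were not. The log2 fold change of *Mbd2* with apoE3 was 0.22 (SE 0.11) against the control, higher in 2 of 4 pairs, and 0.26 (SE 0.11) against apoE2, higher in 4 of 4 pairs.

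*Uhrf1*, whose protein brings DNMT1 to newly replicated DNA (chromosome 17, 56303321 to 56323486), varied more between replicate numbers than between isoforms. The control libraries 1 to 4 were at 2.64, 0.805, 1.85 and 7.86 CPM and the apoE2 libraries at 3.31, 0.535, 2.22 and 5.47. The apoE3 libraries were at 3.88, 1.02, 3.05 and 7.81 CPM and the apoE4 libraries at 5.90, 1.28, 4.15 and 10.9. In each group library 2 was the lowest and library 4 the highest, so the groups overlapped widely, and within each number the apoE4 library was the highest of the 4. The apoE4 library held 2.24, 1.59, 2.24 and 1.39 times the control level of its number. The log2 fold change with apoE4 was 0.76 with an SE of 0.81, and 0.85 with an SE of 0.18 once the number was a block. Without the block it was 0.20 when apoE4 library 4 was left out and 1.65 when control library 4 was. These values rest on 14 to 215 reads a library. In the fits with the block that left out 1 library, the call of *Uhrf1* with apoE4 was kept in 13 of 16 and lost without control library 1, control library 3 or apoE4 library 1.

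**Figure D3:**
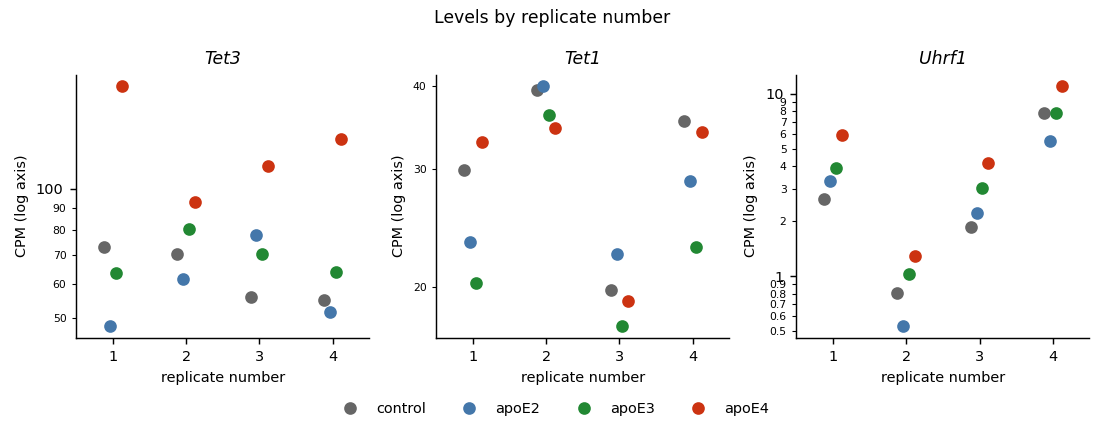
CPM on a log axis of Tet3, Tet1 and Uhrf1 by replicate number, with 1 point for each group. The apoE4 point of Tet3 is the highest at every number, Tet1 is highest at number 2 and lowest at number 3 in each of the 4 groups, and Uhrf1 moves from 0.912 CPM on average at number 2 to 8.02 at number 4.

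The contrast between replicate numbers took in all 4 treatments and was not used to select the genes, so it could be tested. By edgeR's quasi-likelihood F test over the 4 numbers, 5 of the 9 genes differed at an adjusted p under 0.05, as did 63.7% of all tested genes. *Uhrf1* differed most, with 0.912 CPM on average at number 2 and 8.02 at number 4, a ratio of 8.79 (adjusted p = 2.71e-08). *Tet1* was highest at number 2 with 37.6 CPM and lowest at number 3 with 19.7 (adjusted p = 5.55e-05). *Tet2* was highest at number 2 as well, at 45.1 CPM, and lowest at number 4, at 27.4 (adjusted p = 1.21e-04). *Dnmt3b* (adjusted p = 0.00712) and *Dnmt3a* (adjusted p = 0.0122) were highest at number 4, the former at 0.968 CPM against 0.386 at number 2 and the latter at 223 against 174 at number 3. *Dnmt1*, *Mbd1*, *Mbd2* and *Tet3* did not pass, with adjusted p of 0.0724, 0.0772, 0.703 and 0.726. The *Tet3* means by number ran from 75.2 to 89.4 CPM.

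Markers of several cell types differed in level between the replicate numbers. All 7 neuronal markers were above 0 in every library, with a summed level from 2798 to 7192 CPM, highest at number 3 and lowest at number 4. The 7 astrocyte markers summed to 397 to 642 CPM at number 2 and 2096 to 5073 at number 4. The 14 markers of S phase, when DNA is copied, were all above 0 in every library and summed to 59.0 to 66.5 CPM at number 2 and 104 to 132 at number 4. The markers of mural cells and fibroblasts summed to 16.3 to 19.6 CPM at number 2 and 166 to 465 at number 4. *Uhrf1* was likewise lowest at number 2 and highest at number 4, an order that was thus not particular to the S phase sum. These sums also moved with the treatments once libraries of the same number were compared. With apoE4 the S phase sum was higher than in the control in 4 of 4 pairs, by 1.13 to 1.31 times, as was that of the 12 markers of G2 and M phase, by 1.40 to 2.27 times. The astrocyte sum was 1.43 to 2.17 times the control with apoE4 and 1.62 to 3.25 times with apoE3, higher in 4 of 4 pairs each. The G2 and M phase sum was 17.0 to 40.6 CPM in the control and 41.8 to 67.1 with apoE3, so these groups did not overlap, and 26.2 to 75.3 with apoE4. The markers of mural cells and fibroblasts were 1.04 to 2.24 times the control with apoE4, higher in 4 of 4 pairs, and higher in 3 of 4 with apoE3. The oligodendrocyte and endothelial sums were higher in 4 of 4 pairs with apoE3 and with apoE4, the endothelial one at no more than 4.07 CPM, with 3 of its 5 markers above 0 in every library. The microglial sum was higher in 3 and 2 of 4 pairs with apoE3 and apoE4, at no more than 33.9 CPM, with 6 of its 7 markers above 0 in every library. The neuronal sum was lower in 4 of 4 pairs with apoE3 and in 3 of 4 with apoE4. With apoE2 the G2 and M phase sum was 1.17 to 1.89 times and the endothelial sum 1.04 to 1.76 times the control, both higher in 4 of 4 pairs. The astrocyte, oligodendrocyte, microglial and S phase sums were higher with apoE2 in 3 of 4 pairs each, and the mural and the neuronal sums in 2 of 4. In these bulk samples more cells of a type and more RNA per cell cannot be told apart. The part of other cells in the levels of *Tet3*, *Uhrf1*, *Tet1*, *Tet2* and the other members was not tested. For numbers 1 to 4 the astrocyte sum with apoE4 was 2.17, 1.43, 1.71 and 1.90 times the control and *Tet3* was 2.36, 1.33, 2.02 and 2.37 times. With apoE3 the astrocyte ratios were larger, at 3.25, 1.62, 1.81 and 2.37, and those of *Tet3* were 0.868, 1.14, 1.26 and 1.16.

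The transcript start windows were searched because *Uhrf1* moved in the same order as the S phase genes, many of which are targets of the E2F factors. The ranges of the astrocyte and mural sums were also lowest at number 2 and highest at number 4. Windows of 300 bases, 250 before and 50 after each start in RefSeq (GRCm38.p6), were read on both strands for TTTCGCGC and TTTGGCGC, letters typical of E2F sites, and 0.813% of 32851 windows held either one. The windows of *Mbd1* and *Mbd2* were not read. Of the 7 members whose windows were read, *Dnmt1* and *Uhrf1* held a match in 1 of their 3 and 1 of their 2 windows, and the others held none. Each matching window held 33 CpG, against a median of 7 over all windows. The share of 0.813% counts single windows and was not matched for CpG content. The matches are printed 5′ to 3′ on the strand of the gene, in capitals, with up to 11 bases on each side.
Uhrf1, chr17:56304117-56304146, plus strand: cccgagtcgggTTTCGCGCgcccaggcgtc
Dnmt1, chr9:20952824-20952853, minus strand: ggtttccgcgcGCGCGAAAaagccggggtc
Dnmt1, chr9:20952574-20952601, minus strand: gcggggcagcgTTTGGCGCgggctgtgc
The *Uhrf1* match begins 185 bases before the start, and those of *Dnmt1* 219 bases before it, as the reverse complement, and 33 bases after it. Between the highest and the lowest replicate number the *Dnmt1* level differed 1.15 times and the *Uhrf1* level 8.79 times.

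**Figure D4:**
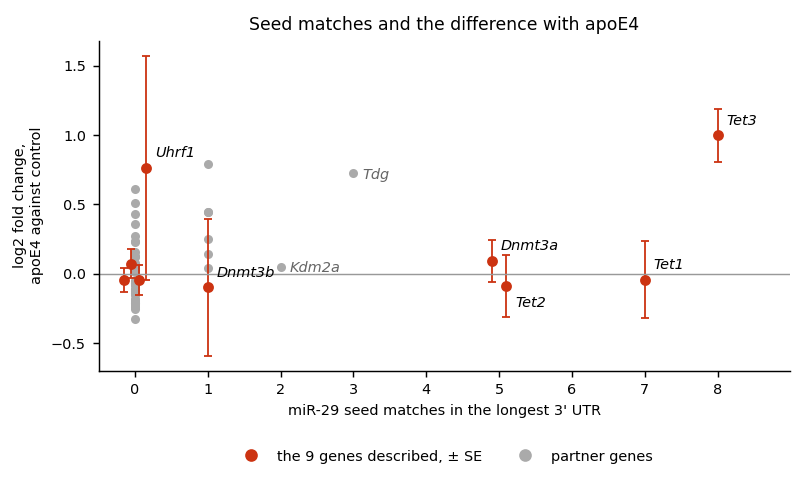
Number of miR-29 seed matches in the longest 3′ untranslated region (horizontal axis) against the log2 fold change with apoE4 from the fit without the block (vertical axis), with the 9 genes in red with their SE, spread slightly sideways where they coincide, and partner genes in grey. Tet3 has 8 matches and a log2 fold change of 1.00, while Tet1, Tet2 and Dnmt3a with 7, 5 and 5 matches lie between -0.09 and 0.09.

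The number of miR-29 matches did not order the members by their difference with apoE4. *Tet3* with 8 matches was higher with apoE4, while *Tet1* with 7 and *Tet2* and *Dnmt3a* with 5 each had log2 fold changes of -0.04, -0.09 and 0.09. Over the 13 tested genes with at least 5 matches, these 4 included, the median log2 fold change with apoE4 was 0.09, with 8 of 13 higher, and over the 11656 genes with no match it was 0.01, with 5967 higher. Of 52 partner genes, 10 held at least 1 match, where 16.9% of the tested genes did. Among these 10, 1 gene held 3 or more, as did 0.599% of the tested genes. That gene was *Tdg*, with 3.

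The partner genes are 52 genes of the same pathway that are not members. They comprise methyl-CpG readers and relatives, partners of writing, partners of demethylation, the NuRD repressor complex and proteins that bind CpG islands. Of these, 50 were tested, and the other two, *Dnmt3l* and *Dppa3*, had 75 and 1 reads over all libraries. The partner list was chosen with earlier results of these data known, so the p-values of partner genes are given as a description. In edgeR's test 0 of 50 were called with apoE2, apoE3 or apoE4 against the control. An unadjusted p under 0.05 was found for 1, 1 and 5 of them, against 2.78%, 6.34% and 3.33% of all tested genes. The DESeq2 calls numbered 0, 0 and 1, against 0.170%, 0.352% and 0.534% of all tested genes. Between isoforms 0 of 50 were called in each comparison, with 0, 6 and 4 at an unadjusted p under 0.05 for apoE3 against apoE2, apoE4 against apoE2 and apoE4 against apoE3, and 0, 1 and 0 by DESeq2. The shares of all tested genes in that order were 2.28%, 5.27% and 4.67% at the unadjusted p and 0.0528%, 0.957% and 0.405% by DESeq2. With apoE4 the level exceeded that of the control in 26 partner genes and was below it in 24, and their median log2 fold change was 0.02 against 0.00 over all tested genes.

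*Tdg*, the glycosylase that acts after the TET enzymes, had the smallest p among the partners with apoE4. Its level was 9.76, 6.44, 7.69 and 8.40 CPM in the apoE4 libraries and 5.14, 4.79, 4.43 and 5.13 in the control libraries. All 4 pairs were higher, and all apoE4 libraries lay above all control libraries, as for 1.34% of all tested genes. Among the apoE2 and apoE3 libraries 1 value, 6.63 CPM in apoE3 library 4, lay above the lowest apoE4 value. The log2 fold change was 0.73 (SE 0.16, adjusted p = 0.128 by edgeR), and with the replicate block 0.72 (adjusted p = 0.0122). The order of its libraries was that of *Tet3*, with apoE4 library 1 highest and library 2 lowest among the 4. *Cdca7l*, a relative of the chromatin factor *Cdca7*, was at 2.07 ± 0.188 with apoE4 against 1.36 ± 0.137 CPM, a log2 fold change of 0.61 (adjusted p = 1.00, or 0.171 with the block).

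With the block, 3 of 50 partners were higher with apoE4 and 0 lower, against 3.34% of all tested genes called, among them *Tdg* and *Cdca7*, the latter at a log2 fold change of 0.86 (adjusted p = 0.0318 with edgeR). The call of *Tdg* was kept in 14 of the 16 blocked fits that left out 1 library and lost without control library 3 or apoE4 library 1, and that of *Cdca7* was kept in 10. With apoE3 and the block, 2 partners were higher and 3 lower, 5 of 50 where 11.8% of all tested genes were called, so the partners do not stand out in that fit. The smallest p without the block belonged to *Kdm2b*, which binds unmethylated CpG islands. It was at 31.8 ± 3.17 CPM with apoE3 and 43.1 ± 1.96 in the control, a log2 fold change of -0.44 (SE 0.12, adjusted p = 0.480, or 0.0159 with the block). The other 4 were *Zfp57*, which protects methylation at imprinted loci, at -0.61 (adjusted p = 0.00958 with the block), *Mat2b*, *Gadd45g* and *Cxxc5*, named here after their values were seen. In the blocked fits that left out 1 library, the call of *Mat2b* was kept in 10 of 16 and that of *Cxxc5* in 7 of 16. *Gadd45g*, of a family linked to active demethylation, was higher at 0.48 (adjusted p = 0.00802 with the block). *Mta3* and *Hdac1* of the NuRD complex, next in p with apoE3, had log2 fold changes of -0.25 and 0.33 and were called in neither fit (adjusted p of 0.784 and 0.791 without the block).

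With apoE2 the block called 0 partners. The NuRD helicase *Chd4* came nearest, at 179 ± 14.1 CPM against 220 ± 21.5, a log2 fold change of -0.30 (adjusted p = 1.00, or 0.0501 with the block). *Chd3*, its relative, had the opposite sign at 0.44 (adjusted p = 1.00, or 0.149 with the block), and *Kdm2b* was at -0.23 (adjusted p = 1.00, or 0.351 with the block). Between apoE4 and apoE2, where the block called 4.45% of all tested genes, it called *Chd4* (log2 fold change 0.34, adjusted p = 0.0135) and *Tdg* (0.67, adjusted p = 0.0147) higher and *Chd3* lower with apoE4 (-0.74, adjusted p = 0.00961). Between apoE4 and apoE3 and between apoE3 and apoE2 the block called 1 of 50 partners each, near the 1.80% and 1.37% of all tested genes called. The gene was *Idh1*, which supplies 2-oxoglutarate for the TET enzymes, lower with apoE4 (-0.52, adjusted p = 0.0442) and higher with apoE3 (0.53, adjusted p = 0.0473). Those 2 calls were kept in 7 and 5 of the 16 blocked fits that left out 1 library.

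**Figure D5:**
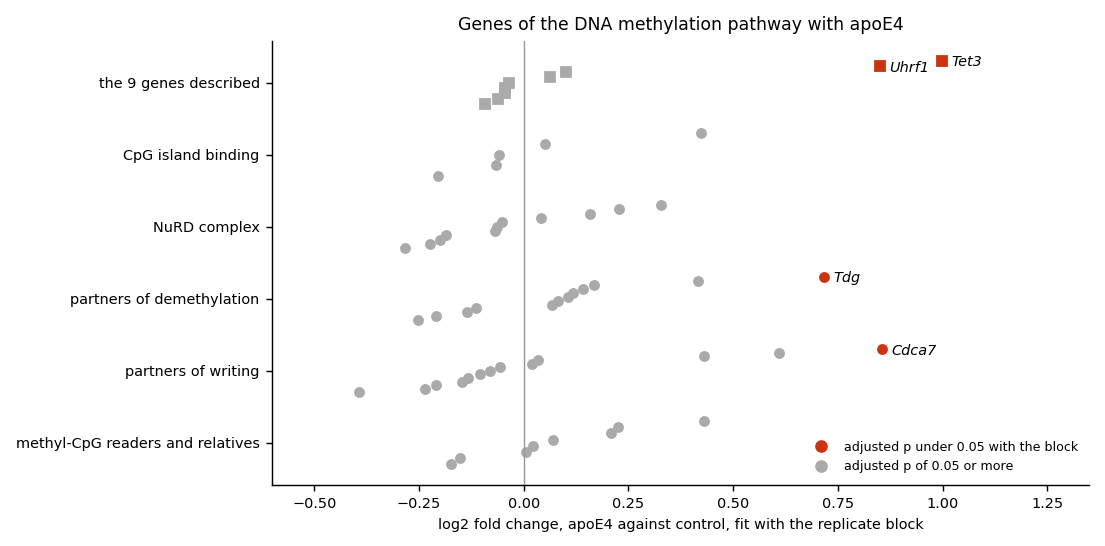
Log2 fold change with apoE4 against the control from the fit with the replicate block, for tested partner genes by group (circles) and the 9 genes described (squares). Genes with an adjusted p under 0.05 in that fit are red and named, and they are Tet3 (1.00), Uhrf1 (0.85), Cdca7 (0.86) and Tdg (0.72).

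Across the 16 libraries the genes whose log2 CPM was most like that of *Tet3* were *Zbtb34* (Pearson r = 0.972), which encodes a zinc finger protein, *Tnrc6b* (r = 0.962), a GW182 protein of microRNA silencing, and *Ago2* (r = 0.961), the Argonaute that carries microRNAs. These r describe 16 libraries that include the 4 apoE4 cultures and carry no p. *Ago2* was at 227 to 442 CPM in the apoE4 libraries and 85.6 to 160 in the other 12, *Tnrc6b* at 150 to 230 and 84.7 to 125, and *Zbtb34* at 11.3 to 22.2 and 4.79 to 8.59. None of the 3 overlapped, and 0.382% of all tested genes had their apoE4 libraries above all 12 others. The 3 genes were picked for their likeness to *Tet3*, so this separation comes with the choice and is no further result. For *Uhrf1* the most like genes were *Gm973* (r = 0.973), *Sh3pxd2b* (r = 0.972) and *Gas2l2* (r = 0.971). For *Tet1* they were *Nos1* (r = 0.936), which makes nitric oxide in neurons, the receptor gene *Kit* (r = 0.936) and *Sec14l3* (r = 0.926), and for *Tet2* *Smim17* (r = 0.945), *Zdhhc15* (r = 0.939) and *Gm45159* (r = 0.937).

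The most like genes of *Dnmt3b* were *Adgra3* (r = 0.922), *Ap3b1* (r = 0.921) and *Rnpep* (r = 0.921), and those of *Dnmt3a* were *Prr15* (r = 0.912), *Klf11* (r = 0.860) and *Tigd5* (r = 0.853). *Dnmt1* was nearest to *Mga* (r = 0.875), *Glra2* (r = 0.824) and *Cntnap5a* (r = 0.820), *Mbd1* to *Fam63b* (r = 0.858), *Tm9sf4* (r = 0.850) and *Sgce* (r = 0.840), and *Mbd2* to *Metap2* (r = 0.879), *Chmp5* (r = 0.850) and *Wdr91* (r = 0.847). Among the tested genes nearest to *Tet3* on chromosome 6, *Bola3*, 2237 bases away, had a log2 fold change of 0.13 (SE 0.14) with apoE4, and *Mob1a*, 18597 bases away, had 1.07 (SE 0.38). On the other side *Dguok*, 21133 bases away, was at -0.05 (SE 0.15) and *Stambp* at 0.25 (SE 0.26). *Mob1a* was at 45.6 to 124 CPM in the apoE4 libraries and 29.5 to 95.5 in the other 12, so unlike *Tet3* its groups overlapped.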

How the data were processed

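RNA of 16 cultures was sequenced after ribosomal RNA depletion, on TruSeq libraries. Alignment to mm10 with STAR and counting per gene with HTSeq were done by the authors, whose deposited files hold raw counts for 48397 symbols in each library. The annotation and the use of strand in counting are not given in the sources used here. *Dnmt3a* and *Tet2* share 0.799% and 0.255% of their exon bases with a gene on the other strand. The summary lines of HTSeq, reads that fell on no gene or on several, made up 38.4 to 73.7% of a library and were left out. The libraries held 14087700 to 34248200 reads on genes (median 22221800), and intervals cover the spread between cultures.

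Groups and replicate numbers came from the sample titles. Counts were fitted with edgeR 4.0.16 (R 4.3.3) over all 16 libraries with 1 coefficient per group, TMM scaling, filterByExpr (minimum count 10, minimum total 15, minimum proportion 0.7) and the robust quasi-likelihood test, and p-values were adjusted by Benjamini-Hochberg over the 17038 genes tested. CPM used TMM-scaled library sizes. RPKM divided CPM by the union of exons in GENCODE M21. The scripts were tested on simulated data. The members and the gene lists were chosen with earlier results of these data known. All members were named, and of the partners the 3 with the smallest p in each comparison, except 1 gene that is not reported here or drawn in the figures. *Cdca7*, *Zfp57*, *Mat2b*, *Gadd45g*, *Cxxc5*, *Idh1* and the neighbours of *Tet3* were named after their values were seen. Likeness was computed on log2 CPM (prior count 2).

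The study names no block, so the reported fit has none. The replicate numbers were taken to pair the libraries from the data: after removing group means, every pair of libraries with the same number correlated, between 0.362 and 0.831, and pairs with different numbers lay between -0.830 and 0.569. The labels do not say what a number marks. The common dispersion in edgeR was 0.132 without the block and 0.0178 with it. The alternatives were DESeq2 size factors, no low-count filter, at least 1 CPM in 8 libraries, DESeq2 1.42.0, only the 2 groups compared, the replicate block, the block with offsets for gene length and GC content, and each library left out. Leaving out a library in the fit with the block was added after values had been seen.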

Additional observations from a re-analysis of the deposited data

Results flagged for a closer look

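Of 36 groups of 4 libraries examined, 9 genes in 4 treatments, 2 held a library far from the other 3. Both were apoE4 library 3. *Dnmt3a* was at 175 CPM there and at 217 to 221 CPM in the other 3 apoE4 libraries, and *Tet1* was at 19.0 CPM there and at 32.9 to 34.6 CPM in the others. Chance flags about 1 group in 20. Number 3 also had the lowest *Dnmt3a* and *Tet1* means over all 4 treatments. Without this library the log2 fold change of *Tet1* with apoE4 was 0.13 in place of -0.04. No gene was higher in all 4 pairs with one isoform and lower in all 4 with another.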

How the results depend on the processing

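Over 16 fits leaving out 1 library, 0 to 1 members were called for apoE4 against control and for apoE4 against apoE2, and 0 to 1 met the study's limits on fold and p, applied to edgeR's values, with apoE4. The other counts of members and of partner genes by treatment were 0 in all 16, and 5 to 6 members differed between replicate numbers. DESeq2 called 1 member with apoE4 against control, 1 against apoE3 and 1 partner gene with apoE4 (*Tdg*), and with only the 2 groups compared 0 members were called for apoE4 against apoE2. With the replicate block, 2, 2 and 1 members were called for apoE4 against control, apoE2 and apoE3, and 5 and 3 partner genes with apoE3 and apoE4. With the block and offsets for length and GC content there were again 2, 2 and 1 members in those comparisons, 2 with apoE3 (*Tet1* and *Tet2*, lower), and 1, 5 and 2 partner genes with apoE2, apoE3 and apoE4. That fit called 1.84%, 13.5% and 3.13% of all tested genes with apoE2, apoE3 and apoE4 against control, and 4.88% and 1.83% for apoE4 against apoE2 and apoE3, and DESeq2 called 0.534% with apoE4 against control and 0.405% against apoE3. The cause was not tested, beyond the lower dispersion with the block. The log2 fold change of *Tet3* with apoE4 was 0.80 with those offsets, 0.99 to 1.00 in the other fits of all 4 apoE4 and control libraries, and 0.82 to 1.12 with 1 library left out. No member's log2 fold change changed from a call in one direction to the other, and 3 of those with the offsets moved by more than the replicate spread. The filter at 1 CPM in 8 libraries removed *Dnmt3b*. DESeq2 size factors and both filters left each count of calls as it was. Other than as given, the block changed no call. The fewest reads lay behind *Dnmt3b* (7 to 23 a library) and *Uhrf1* (14 to 215).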
